A study of Mus musculus with 2 samples.

Results

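Chromatin accessibility at 41 genes of motile cilia was described in lung from newborn mice: 12 regulators, namely 6 multiciliogenesis regulators and 6 RFX transcription factors, and 29 genes for parts of the axoneme or its assembly. The members were chosen by name and matched to the GENCODE M21 gene models of assembly mm10, which held 21911 protein-coding genes with unique names. DNase-seq, which maps where DNase I cuts chromatin, had been run on lung tissue of the mouse strain B6NCrl at age 0 days, postnatal, in 1 group of 2 biological replicates with no treatment, mutation or control tissue. Both biosamples carry the same donor entry and the sex was not collected, and the labels do not say whether different animals or pools were used, so differences between the replicates measure the spread between these libraries. The labels list 2 sequencing instrument models for replicate 1 and none for replicate 2.

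Motile cilia of the airway move mucus across the lung surface. Multiciliated cells are made when GMNC and MCIDAS, working with E2F factors, start a programme that runs through CCNO, MYB, TP73, FOXJ1 and RFX factors, and RFX proteins bind the X-box, a paired DNA motif, in promoters of cilia genes. The axoneme they build has outer and inner dynein arms that slide microtubules, radial spokes and a central pair that coordinate the stroke, rulers that set its repeats, and tektins inside its microtubules.

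Replicate 1 held 276480 peaks and replicate 2 held 188498 on the chromosomes used, each 150 bp wide with a score from 2 to 150 and from 1 to 148. The sources used here give neither what the score measures nor how deeply each library was sequenced. Overlapping peaks of the 2 replicates were merged into sites, and a site is called shared when it held peaks of both. A gene's promoter was called accessible if a shared site reached to within 500 bp of any of its transcription start sites (TSSs) in GENCODE. Where 2 scores follow a gene, they belong to its strongest shared promoter site in replicates 1 and 2, in that order. Lung is a mixture of cell types, and fewer cells of a type cannot be told apart from less accessible chromatin in each of them. Of 10 lung marker genes, 9 had a shared promoter site, the highest at Abca3 (116 and 110), Hopx (121 and 91) and Foxf1 (119 and 92), while Scgb1a1, the club cell secretoglobin, had a promoter peak of score 48 in replicate 1 only. Among 6 markers of ependyma and choroid plexus, which also carry motile cilia, 4 had a shared site, led by Nnat (113 and 89), Rarres2 (80 and 66) and Kl (64 and 38), and Folr1 and Ttr had no promoter peak. These shares, 90% for lung and 66.7% for ependyma and choroid plexus, stand beside 68.5% of all protein-coding genes. Lists this short do not make a contrast of tissues.

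A promoter site shared by both replicates was found for 34 of the 41 members (82.9%), against 68.5% of all protein-coding genes. The share was nearly the same in the regulators, 10 of 12 (83.3%), and in the axoneme genes, 24 of 29 (82.8%). Trp73 and Drc1 had a promoter peak in replicate 1 only, and Rfx4, Dnah5, Dnah3, Dnah10 and Dnah12 had none in either replicate. By replicate, 36 members had a promoter peak in replicate 1, where the background was 72.4%, and 34 in replicate 2, where it was 69.3%. Hotspots, the broader regions of enriched cutting called by the authors, covered a promoter in both replicates for the same number of members, 34, against 69.1% of all genes.

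The number of CpG dinucleotides around a promoter separated genes with and without an accessible promoter across the whole genome. In the lowest, middle and highest tertile of CpG number within 500 bp of the 5′ gene end, 27.1%, 81.8% and 96.6% of protein-coding genes had a shared promoter site. The regulators and axoneme genes lay in different tertiles, with medians of 91 and 31 CpGs against 41 for all genes. Of the 12 regulators, 9 were in the highest tertile, where 8 had an accessible promoter. Of the 29 axoneme genes, 22 were in the middle tertile, where 19 had one, and 5 in the lowest, where 3 had one. Over both classes the counts were 4 of 6 members in the lowest tertile, 20 of 24 in the middle and 10 of 11 in the highest, so in the middle and highest tertiles the members' shares lay near those of all genes. The 4 in the lowest tertile, Gmnc, Dnah17, Dnah2 and Tekt4, all had their site at a TSS inside the gene, 16975 to 41534 bp from the 5′ end where CpGs were counted, and at the 5′ end itself 0 of these 6 members had a shared site.

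Median peak scores were higher at the regulators than at the axoneme genes. The 10 regulators with a shared site had median scores of 130 and 113, and the 24 axoneme genes 97 and 76, against 121 and 101 over all 15010 genes with a shared promoter site. The score was above the all-gene median at 5 and 7 of the 10 regulators in replicates 1 and 2, and at 4 and 5 of the 24 axoneme genes. The classes overlapped widely: regulators ran from 44 to 146 and axoneme genes from 50 to 138 in replicate 1. Within the middle CpG tertile the 19 axoneme genes had medians of 98 and 77 against 117 and 97 for all 5972 genes there, and 4 and 5 of them were above those medians. In the lowest tertile the 3 axoneme genes with a site had medians of 85 and 64 against 86 and 63 for all 1979 genes, and in the highest the 2 axoneme genes had 121.5 and 106 against 128 and 109. Within the highest tertile the 8 regulators had medians of 129.5 and 113 against 128 and 109 for all 7059 genes, with 4 above the median in each replicate. The gap between axoneme genes and all genes was thus clear in the middle tertile and small in the others, where few axoneme genes lay. The tertiles do not match genes on CpG number, and the part of CpG number in these scores was not tested. With 1 group and 2 libraries there is no test of these differences.

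**Figure D1:**
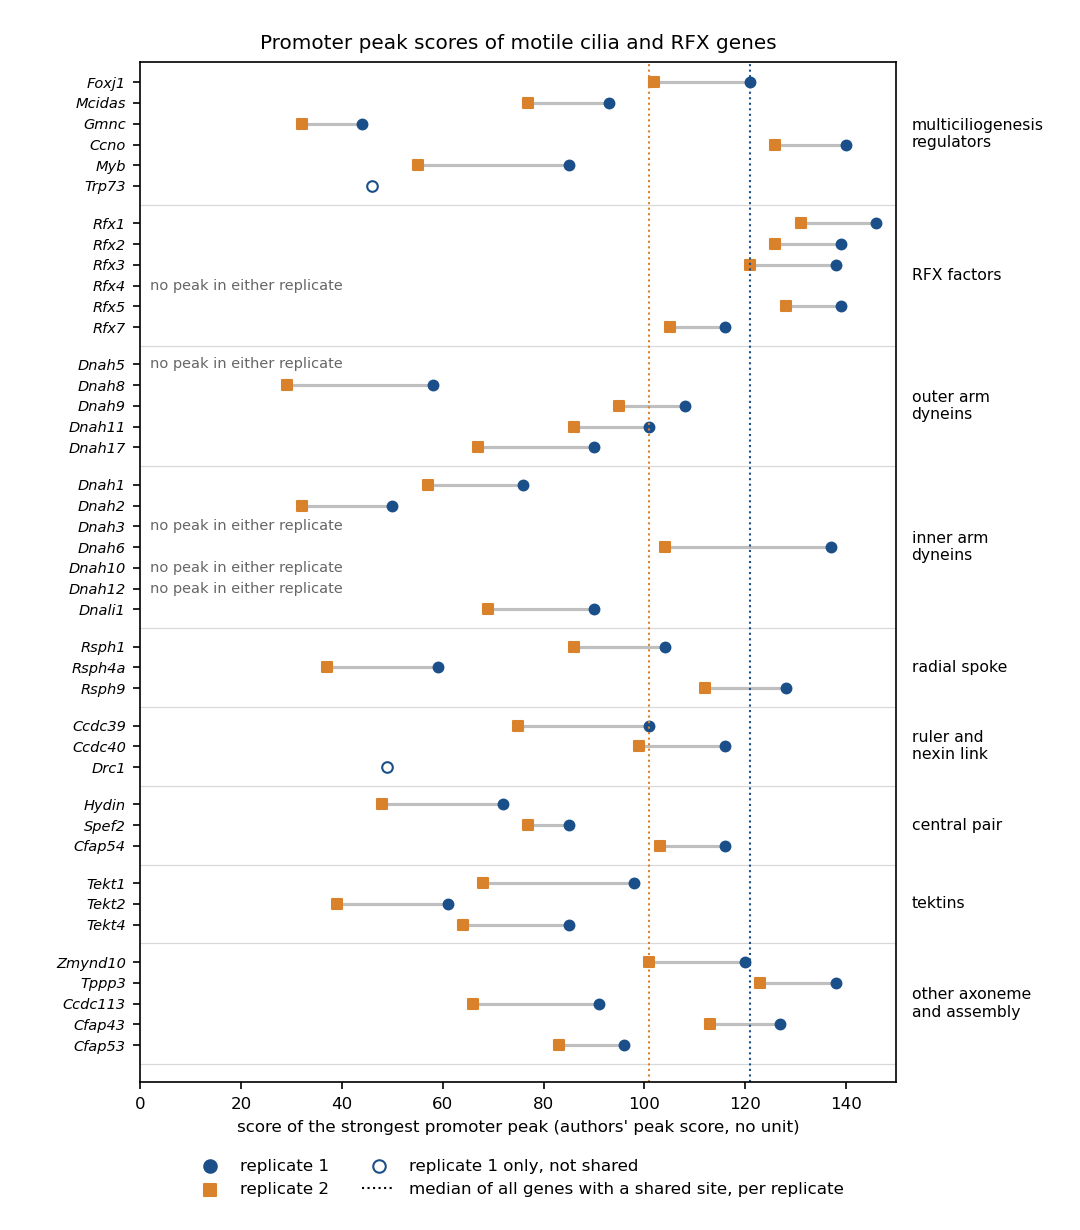
Scores of the strongest promoter peak (x axis, the authors' peak score, which has no unit) for each of the 41 members, grouped by role, in replicate 1 (circles) and replicate 2 (squares); open circles mark peaks of replicate 1 that were not shared, and dotted lines the medians of all genes with a shared site, 121 and 101. The 5 RFX factors with a site lie right of the lines except Rfx7 in replicate 1, most axoneme genes lie left of them, and 5 members have no peak.

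The multiciliogenesis regulators covered nearly the whole range of scores. Foxj1, which encodes the forkhead factor that drives motile cilia genes, had scores of 121 and 102 at a site centred 61 bp upstream of its TSS (chr11:116335376-116335545) and a further shared site of 94 and 72 centred 471 bp upstream. Its main site lay at the middle of all genes with a shared promoter site, at percentiles 49.7 and 51 of their strongest promoter scores. Ccno, a cyclin family gene needed to amplify centrioles, had the highest scores of this group, 140 and 126, at a site 72 bp upstream (chr13:112987656-112987805), percentiles 88.9 and 89.5. Mcidas, which with E2F factors starts the multiciliated programme, lies just downstream of Ccno on the same strand. Its strongest site scored 93 and 77 and lay 575 bp inside the gene in a coding exon, and a weaker one of 66 and 36 lay 135 bp upstream. Myb, a transcription factor of early multiciliated and of blood progenitor cells, scored 85 and 55.

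The remaining 2 genes of this group had the weakest promoter signal. Gmnc, which acts upstream of Mcidas, had no shared site at the 5′ end of its gene model and a site of 44 and 32 centred 145 bp past a TSS that lies inside the gene, percentiles 3.56 and 3.93. Trp73, a p53 family factor of the multiciliated programme, had peaks of 46 and 36 in replicate 1, 198 and 478 bp into the gene, and no peak of replicate 2 within 500 bp of its 5 annotated TSSs. Its nearest shared site, of 127 and 108, began 2088 bp from a TSS of Trp73, upstream of the gene. That site was not counted among the distal sites described below, the strongest of which scored 116 and 84 at Trp73. It therefore lay close to a TSS of another gene and is not read as an element of Trp73. In replicate 1 the promoter scores of Gmnc and Trp73 lay below those of Foxj1, Ccno, Mcidas and Myb. In replicate 2 this held for Gmnc, and Trp73 had no promoter peak to rank. Gmnc and Trp73 differ from one another in CpG number: the promoter region of Gmnc held 10 CpGs and that of Trp73 held 95.

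The RFX factors had the highest scores of the 9 roles, with medians of 139 and 126 over the 5 genes that had a site. Scores were 146 and 131 at Rfx1, 139 and 126 at Rfx2, 138 and 121 at Rfx3, 139 and 128 at Rfx5 and 116 and 105 at Rfx7. These include RFX2 and RFX3, the family members best known in ciliated cells, as well as RFX1 and RFX7, which are widely expressed, and RFX5, which regulates MHC class II genes. Their order was the same in both replicates, apart from a tie of Rfx2 and Rfx5 in replicate 1. Rfx1 stood at percentiles 98.8 and 95.8 of all genes with a shared promoter site, and Rfx7 at 42.3 and 55.5. Several had more than 1 shared promoter site: Rfx3 had others of 134 and 109 centred 24 bp upstream of its 5′ end and of 72 and 45 centred 486 bp inside, all under hotspots of 2936 and 2793 bp, the widest of any member in each replicate.

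Rfx4, an RFX gene best known in brain and testis, was the exception, with no promoter peak in either replicate and no hotspot there. The nearest shared site, of 62 and 31, began 977 bp upstream of a TSS, outside the promoter limit of 500 bp and inside one of 1000 bp. Farther from its TSSs the gene was not without accessible chromatin: 21 shared distal sites, over 1000 bp away from every TSS, lay inside it (14) or in the 50 kb to either side. The strongest of those with an Rfx4 TSS as the nearest scored 93 and 79 in an intron, 111698 bp from the 5′ end.

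The parts of the strongest promoter sites upstream of the gene are shown for the 3 regulators with the highest scores and for Foxj1, to set their base composition beside the axoneme promoters that follow. All are read 5′ to 3′ on the strand of the gene from assembly mm10, and none held a complete X-box pair as defined below.
Rfx1, chr8:84066556-84066705, plus strand: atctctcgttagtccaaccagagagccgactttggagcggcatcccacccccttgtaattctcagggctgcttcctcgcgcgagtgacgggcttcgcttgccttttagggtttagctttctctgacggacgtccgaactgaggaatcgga
Rfx5, chr3:94953956-94954074, plus strand: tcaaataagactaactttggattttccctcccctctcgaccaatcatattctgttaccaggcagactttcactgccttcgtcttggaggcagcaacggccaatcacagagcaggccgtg
Ccno, chr13:112987656-112987801, plus strand: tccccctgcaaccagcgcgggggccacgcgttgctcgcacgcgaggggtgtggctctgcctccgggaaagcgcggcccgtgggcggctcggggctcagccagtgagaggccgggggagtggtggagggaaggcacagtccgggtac
Foxj1, chr11:116335400-116335535, minus strand: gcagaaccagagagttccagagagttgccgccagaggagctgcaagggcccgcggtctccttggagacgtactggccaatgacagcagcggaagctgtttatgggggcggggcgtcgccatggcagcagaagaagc
The 150 bp at the centre of these sites held 12 CpGs at Rfx1, 7 at Rfx5, 15 at Ccno and 10 at Foxj1. Their GC content was 56%, 51.3%, 72.7% and 62%.

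Among outer arm dynein heavy chains, the motors that set beat frequency, 4 of 5 genes (80%) had an accessible promoter. The share was 68.5% of all protein-coding genes and 81.8% of those in the middle CpG tertile. Dnah9 (108 and 95) and Dnah11 (101 and 86) had their sites at the 5′ end of the gene, centred 1 and 73 bp inside it. Dnah17 (90 and 67) and Dnah8 (58 and 29), heavy chains known from sperm, had theirs 41534 and 11106 bp inside, at internal TSSs of transcripts that are not protein-coding, and no shared site at the 5′ end. Dnah5, whose loss is a common cause of primary ciliary dyskinesia, had no promoter peak in either replicate, and its nearest shared site (67 and 55) began 15447 bp from its only TSS. The axonemal heavy chains of airway cilia thus differed: Dnah9 and Dnah11 had shared sites at their 5′ ends and Dnah5 did not.

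Of the inner arm dyneins, 4 of 7 (57.1%) had an accessible promoter, against 68.5% of all protein-coding genes. Dnah6 had the strongest site, 137 and 104, centred 119 bp upstream, and Dnali1, a light intermediate chain, scored 90 and 69 at 7 bp upstream. Dnah1 scored 76 and 57 at an internal TSS 54306 bp from its 5′ end, and 82 and 50 at the 5′ end itself, so the 2 replicates ranked these sites in opposite order. Dnah2 (50 and 32) was accessible only 32190 bp inside the gene, 165 bp upstream of an internal TSS. Dnah3, Dnah10 and Dnah12 had no promoter peak in either replicate. Their nearest shared sites began 2696, 4518 and 1629 bp from a TSS and scored 98 and 81, 44 and 24, and 50 and 38.

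Of the radial spoke, ruler and nexin link, central pair and tektin genes, all had a shared promoter site except Drc1, against 68.5% of all protein-coding genes and 81.8% of all genes in the middle CpG tertile, where most axoneme genes lay. The radial spoke head genes Rsph9 (128 and 112), Rsph1 (104 and 86) and Rsph4a (59 and 37) all had a shared site, centred 34 bp upstream, 3 bp inside and 131 bp upstream of a TSS, and their scores kept that order in both replicates. Of the ruler and nexin link genes, Ccdc40 scored 116 and 99 and Ccdc39, whose protein forms the ruler together with CCDC40, 101 and 75. Drc1, a nexin link subunit, had a peak of 49 centred 18 bp upstream in replicate 1 and none in replicate 2. The central pair genes Cfap54 (116 and 103), Spef2 (85 and 77) and Hydin (72 and 48) all had a shared site. So did the tektins Tekt1 (98 and 68), Tekt4 (85 and 64) and Tekt2 (61 and 39). The hotspots at the Tekt2 site were weak, with −log10 significance values of 2.71 and 2.23, beside medians of 4.46 and 4.15 over all hotspots. The Tekt4 site lay at a TSS 16975 bp inside the gene model.

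The remaining axoneme and assembly genes had the highest median of the axoneme roles, 120 and 101. Tppp3, a tubulin polymerisation-promoting protein used as a marker of ciliated cells, scored 138 and 123 at a site centred 66 bp inside its first exon. Cfap43 (127 and 113), an axonemal protein gene, and Zmynd10 (120 and 101), which encodes a factor that preassembles dynein arms, followed. Cfap53 (96 and 83) and Ccdc113 (91 and 66), both genes of ciliary proteins, were the lowest of the 5. Tppp3 lay at percentiles 84.5 and 84.7 of all genes with a shared promoter site, in the range of Rfx3.

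**Figure D2:**
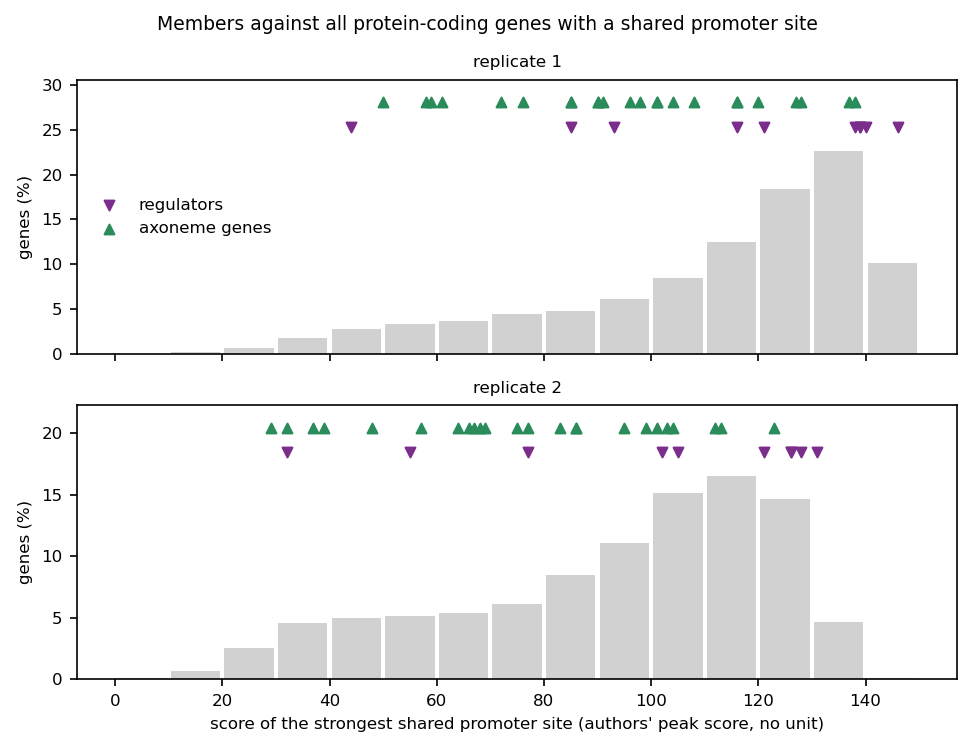
Distribution of the strongest shared promoter score (x axis, authors' score) over all 15010 protein-coding genes with such a site (grey bars, % of genes per 10 score units), with 10 regulators and 24 axoneme genes as triangles, in replicates 1 and 2. The axoneme genes spread over the lower and middle scores, medians 97 and 76, and 5 regulators cluster near the upper end in replicate 1.

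Replicate 1 had the higher score at 34 of 34 member sites, by a median log2 ratio of 0.26 (0.12 to 1.00), and at 14838 of 15010 sites of all genes, by a median of 0.25. The ratio at the members was thus close to that of the genome, and scores of the 2 lists are read here only within each list. The widest gap among members was at Dnah8, 58 and 29.

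The choice of start site mattered for several axoneme genes. At the 5′ end of the gene model alone, 29 of 41 members had a shared site, against 62.9% of all protein-coding genes, and the genes lost were Gmnc, Dnah8, Dnah17, Dnah2 and Tekt4. Each of the 5 has its site at a TSS inside the gene model. Counting only TSSs of protein-coding transcripts left 31 members, without Dnah8, Dnah17 and Dnah2, against 67.1% of all genes. Ccdc40 had the most shared promoter sites of the members, 7, of which 3 lay at its 5′ end and the others near internal TSSs. Cfap43 had 4, at 127 and 113, 114 and 101, 91 and 84 near the 5′ end and 99 and 58 at a TSS 81927 bp inside.

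Few of these promoters were shared with another protein-coding gene. At 2 of 34 members (5.88%) another protein-coding gene had a TSS within 500 bp of the strongest site, against 16.7% of all genes. At Ccdc40 it was Tbc1d16, on the opposite strand with its TSS 73 bp upstream, and at Cfap43 it was Itprip, on the same strand 12 bp upstream. Start sites of noncoding genes lay as near at Rfx7 (4930509E16Rik), Dnah9 (Gm12296), Dnah1 (Gm35823) and Hydin (Gm26832), all on the opposite strand, and Cfap43 also had Gm22240, a miRNA gene, on its own strand. For these sites accessibility of the member and of its neighbour cannot be told apart. At 10 of 42 other motile cilia genes (23.8%) and 8 of 32 primary cilium genes (25%) the site lay near a second coding TSS. Of the highest genes named below, these were Dnaaf5 (beside Prkar1b), Ccdc151 (Prkcsh), Cep290 (Tmtc3) and Rpgrip1l (Fto). In further lists, Cep63 (Anapc13), Rfxank (Borcs8 and Mef2b) and Catsper2 (Pdia3) had such a site. There too the gene and its neighbour cannot be told apart. Over all genes, sites near a second coding TSS had the higher median score in both replicates.

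Genes of the same process outside the member list gave a wider frame. Of 46 other motile cilia genes, 42 (91.3%) had an accessible promoter, with medians of 110 and 83, and the highest were the assembly factor gene Dnaaf5 (143 and 135) and the docking complex genes Ccdc151 (145 and 130) and Ccdc114 (144 and 122). Sntn, a gene of the ciliary tip, had no promoter peak. Of 12 other multiciliogenesis genes, 10 were accessible, led by the centriole genes Cep152 (138 and 120) and Cep63 (135 and 123) and by E2f4 (133 and 123), a partner of MCIDAS, while Ccdc78 and Foxn4 had no peak. Of 5 further RFX and RFX5 partner genes 4 were accessible: Rfxank (132 and 123) and Rfxap (123 and 112), which form a complex with RFX5, were high and Rfx6 (53 and 41), known from the pancreas, was low.

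Genes of the primary cilium, which most cells carry, and of the sperm flagellum lay at either side of the members. All 32 primary cilium genes for intraflagellar transport, the BBSome and the transition zone had a shared site, with medians of 133 and 115, among them Ift27 (150 and 137), Cep290 (146 and 138) and Rpgrip1l (146 and 136). Their promoters held a median of 56.5 CpGs. Of 20 sperm flagellum genes 5 (25%) had one, the highest at Catsper2 (145 and 121), Cabyr (122 and 100) and Tekt5 (93 and 70). The Catsper2 site also lay near the TSS of Pdia3. No peak in either replicate was found for 13 of the 20, including Actl7a, Catsper1 and Catsper3. The 20 genes had a median of 13.5 CpGs, which is in the lowest tertile of CpG number, where 27.1% of genes had a shared site.

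**Figure D3:**
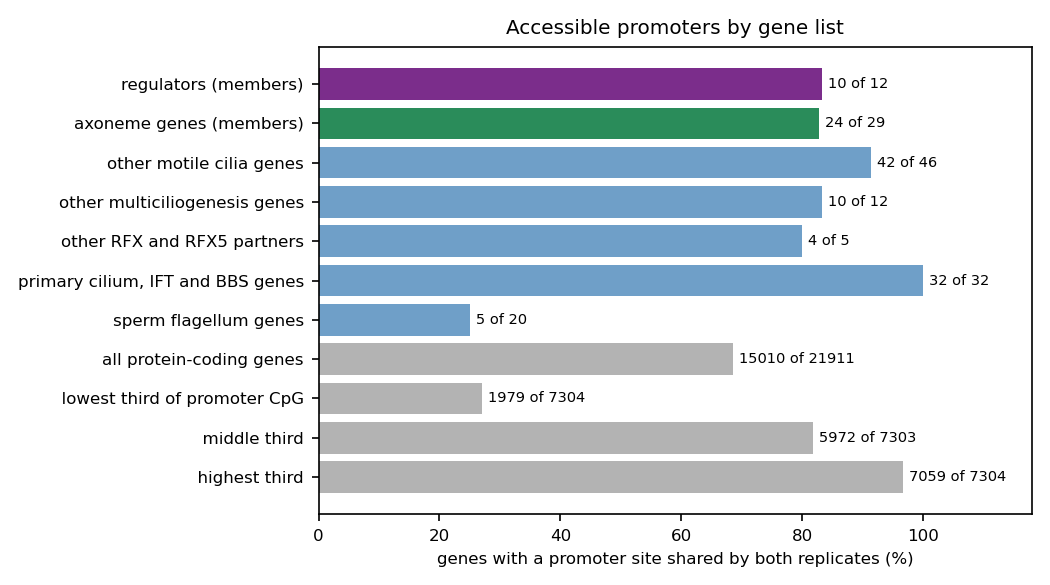
Share of genes (x axis, %) with a promoter site shared by both replicates, for the members' classes, for gene lists of related processes and for all protein-coding genes, whole and by tertile of promoter CpG number; the labels give the counts. Regulators (10 of 12) and axoneme genes (24 of 29) lie close together, above all genes (68.5%) and near the middle CpG tertile (81.8%).

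The X-box was searched in the 150 bp around the centre of the strongest shared promoter site. It was defined here as the arms GTTNC and GNAAC, in that order, with 3 to 5 bases between them, a form that reads the same on both strands. Of the members' sites 3 of 34 (8.82%) held such a pair, against 1.53% of the sites of all protein-coding genes. All 3 were axoneme genes, Hydin, Cfap54 and Tekt4, so that the counts were 3 of 24 axoneme genes (12.5%) and 0 of 10 regulators. In 300 bp the count was 6 of 34 (17.6%), with Rfx2 and Dnah9 among those added, against 2.52% of all genes. Other motile cilia genes held the pair in 9 of 42 sites (21.4%) and primary cilium genes in 2 of 32 (6.25%).

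Pairs found at Hydin, Cfap54, Tekt4, Dnah9, Rfx2 and Tekt2 are shown with 8 bases to either side, read 5′ to 3′ on the strand of the gene from assembly mm10 and with the pair in capitals, since they are the part of these promoters that RFX factors are known to recognise. A match is a description of the letters and not a measured binding site.
Hydin, chr8:110266948-110266977, plus strand: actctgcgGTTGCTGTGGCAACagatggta
Cfap54, chr10:93081630-93081658, minus strand: gggagatcGTTGCTTGGCAACcgcttgtc
Tekt4, chr17:25471546-25471574, plus strand: gtgaccctGTTGCTCAGCAACaggaggca
Tekt4, chr17:25471582-25471611, plus strand: tatacaatGTTCCTTAGGCAACcaggaacc
Dnah9, chr11:66168613-66168641, minus strand: ttccaccaGTTTCCCAGCAACaacgacgc
Rfx2, chr17:56831102-56831132, minus strand: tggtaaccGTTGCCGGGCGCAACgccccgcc
Tekt2, chr4:126325697-126325725, minus strand: agggggcgGTTGCTCGGCAACcagagccg
At Hydin, Cfap54 and Tekt2 the middle of the pair lay 14, 26 and 23 bp upstream of the nearest TSS. Tekt4 held 2 pairs, one 30 bp upstream of its internal TSS and one across it. At Dnah9 and Rfx2 the pair lay 76 and 104 bp upstream. The spacer between the arms was 3 bases in 4 of the 7 pairs shown, 4 bases at Hydin and at the second Tekt4 pair, and 5 bases at Rfx2. The Tekt2 pair lay outside the 300 bp of its strongest site, 231 bp upstream of the centre, and came from the RefSeq promoter windows described next.

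For comparison with a window that does not depend on the peaks, the RefSeq promoters of assembly GRCm38.p6, which is mm10, were searched from 250 bases before to 50 bases after each start. Of the members 34 of 41 were in that table, with 40 windows. The pair was found in 7 of the 40 windows (17.5%), among them those of Dnah9, Hydin, Rfx2, Tekt2 and Tekt4, against 2.37% of all 32851 windows. All 7 belonged to members with an accessible promoter, and the 8 windows of members without one held 0. With so few windows and a share of 2.37% over all windows, these counts do not make a contrast. In 300 bp around the site, 4 of the 6 members with a pair had it within 50 bp of a TSS, as did 11 of 12 other motile cilia genes and 4 of 4 primary cilium genes, against 155 of 378 (41%) of all genes with a pair.

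The longer stretches at a pair of central pair genes show where the pair sits within the peak. They are the parts upstream of the gene of the 150 bp at Cfap54 and Hydin, with the pair in capitals near the end that meets the gene.
Cfap54, chr10:93081619-93081765, minus strand: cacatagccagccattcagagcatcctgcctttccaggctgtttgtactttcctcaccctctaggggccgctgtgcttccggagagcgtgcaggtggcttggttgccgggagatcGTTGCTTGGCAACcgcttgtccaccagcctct
Hydin, chr8:110266866-110266976, plus strand: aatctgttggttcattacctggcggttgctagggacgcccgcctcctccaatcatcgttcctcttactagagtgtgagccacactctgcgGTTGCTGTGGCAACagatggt

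The single X-box arm GTTGCCA, searched on both strands, was in 5 of 34 member sites (14.7%), at Dnah11, Hydin, Cfap54, Tekt1 and Cfap53, against 2.6% of all sites. It overlaps the pair in part of its letters. Primary cilium genes held it in 6 of 32 sites (18.8%) and other motile cilia genes in 9 of 42 (21.4%). In the RefSeq windows the single arm was in 7 of 40 windows of members (17.5%), against 4.38% of all windows. It was in 5 of 32 windows of members with an accessible promoter (15.6%) and in 2 of 8 of those without (25%). The forkhead motif TGTTTAC, the class that FOXJ1 belongs to, was in 0 of 34 member sites against 1.25% of all sites, and in 0 of 42 sites of other motile cilia genes. The E2F motif GCGGGAA was in 0 of 34 against 4.54%, and in 3 of 10 sites of other multiciliogenesis genes, Deup1, Cep152 and Cdk2. The direction for the forkhead motif turned with the window: in 300 bp it was in 2 of 34 member sites (5.88%), at Myb and Dnah17, against 2.25% of all sites, and in the RefSeq windows in 3 of 40 (7.5%) against 3.65%. The E2F motif was in 1 of 34 member sites in 300 bp (2.94%), at Foxj1, against 9.17%, and in 1 of 40 RefSeq windows (2.5%) against 4.6%. Where these letters are not in a window, that says nothing of the factors.

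Sites far from promoters were counted where a shared site lay wholly outside 1000 bp around the TSSs of all genes and no farther than 50 kb from the member. The members had a median of 10 such sites, from 0 to 44, against 8 for all protein-coding genes, and regulators (11.5) and axoneme genes (10) were alike. Members were long genes, with a median of 76.9 kb against 17.4 kb for all genes, and longer genes reach more sites. In the short, middle and long tertile of gene length the members' medians were 8, 8.5 and 13.5, against 5, 7 and 12 for all genes. Of the members 6 of 7, 5 of 8 and 15 of 26 lay above those medians. Per 100 kb searched the medians were 6.58 for members, 7.69 for regulators, 5.36 for axoneme genes and 5.84 for all genes, so the axoneme genes lay on the other side of the all-gene median on this scale.

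**Figure D4:**
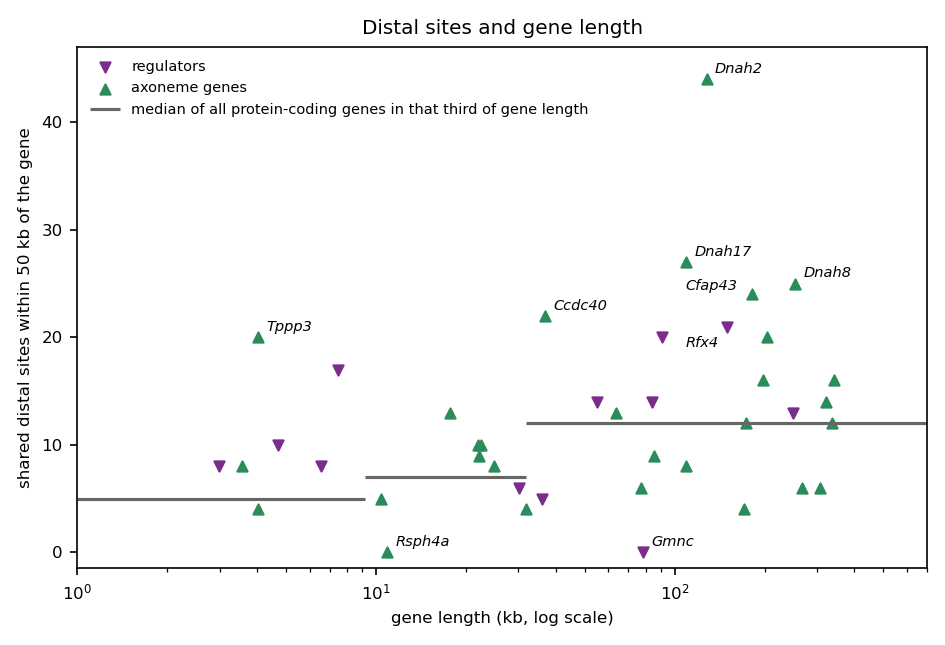
Number of shared distal sites within 50 kb of each member (y axis) against gene length in kb (x axis, log scale), with regulators and axoneme genes as triangles and horizontal lines for the medians of all protein-coding genes in each tertile of gene length (5, 7 and 12). Dnah2 stands highest with 44 sites, and Gmnc and Rsph4a have 0.

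The genes at the ends of that range were not those with the strongest promoters. Dnah2 had 44 distal sites, 23 of them inside the gene, and 14 had a TSS of Dnah2 as their nearest. The 5 strongest distal sites within reach of any member all lay outside Dnah2 and nearest to the TSSs of its neighbours, 4 at Kdm6b and 1 at Trp53, with scores of 142 and 123 for the first (chr11:69418896-69419065). Counts by distance thus include sites whose nearest gene is another one, and no assignment to a target was made. Gmnc and Rsph4a had 0 shared distal sites within 50 kb. Dnah8, with weak promoter scores, had 25 distal sites, 14 nearest to its own TSSs, and the strongest of these scored 126 and 104, 34036 bp from the 5′ end.

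Around Foxj1, 10 shared distal sites lay within 50 kb, of which 1, at 32 and 27 in a coding exon, had the Foxj1 TSS as its nearest. The strongest of the 10 scored 95 and 83 and lay 32911 bp upstream. Ccno and Mcidas, 3067 bp apart, shared their surroundings: each had 8 distal sites, and the strongest of both was the same site of 107 and 88 (chr13:113000696-113000845), which lies just past the 3′ end of Mcidas. Cdc20b, the next gene on that strand and part of the same multiciliated locus, scored 70 and 62 at its promoter. Rfx2 had 14 distal sites, 6 nearest to itself, the strongest of these an intronic site of 113 and 97 at 22283 bp. Rfx3 had 13, 7 nearest to itself, the strongest 74 and 82 in an intron at 230876 bp, where replicate 2 was the higher.

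Among members with no shared promoter site, distal sites were present in every case, as in most genes: 2433 of 21911 protein-coding genes had 0. Trp73 had 14, Drc1 9, Dnah3 12, Dnah10 8, Dnah12 16 and Dnah5 6, beside the 21 of Rfx4. Those with a TSS of the gene itself as the nearest were 5, 1, 5, 4, 8 and 1 in that order, and 12 at Rfx4. At Dnah5 the strongest, of 127 and 105, lay 44662 bp upstream, nearest to the TSS of another gene. The X-box pair was in 5 of the 503 distinct distal sites within reach of members (0.994%), against 1.14% of all shared distal sites.

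**Figure D5:**
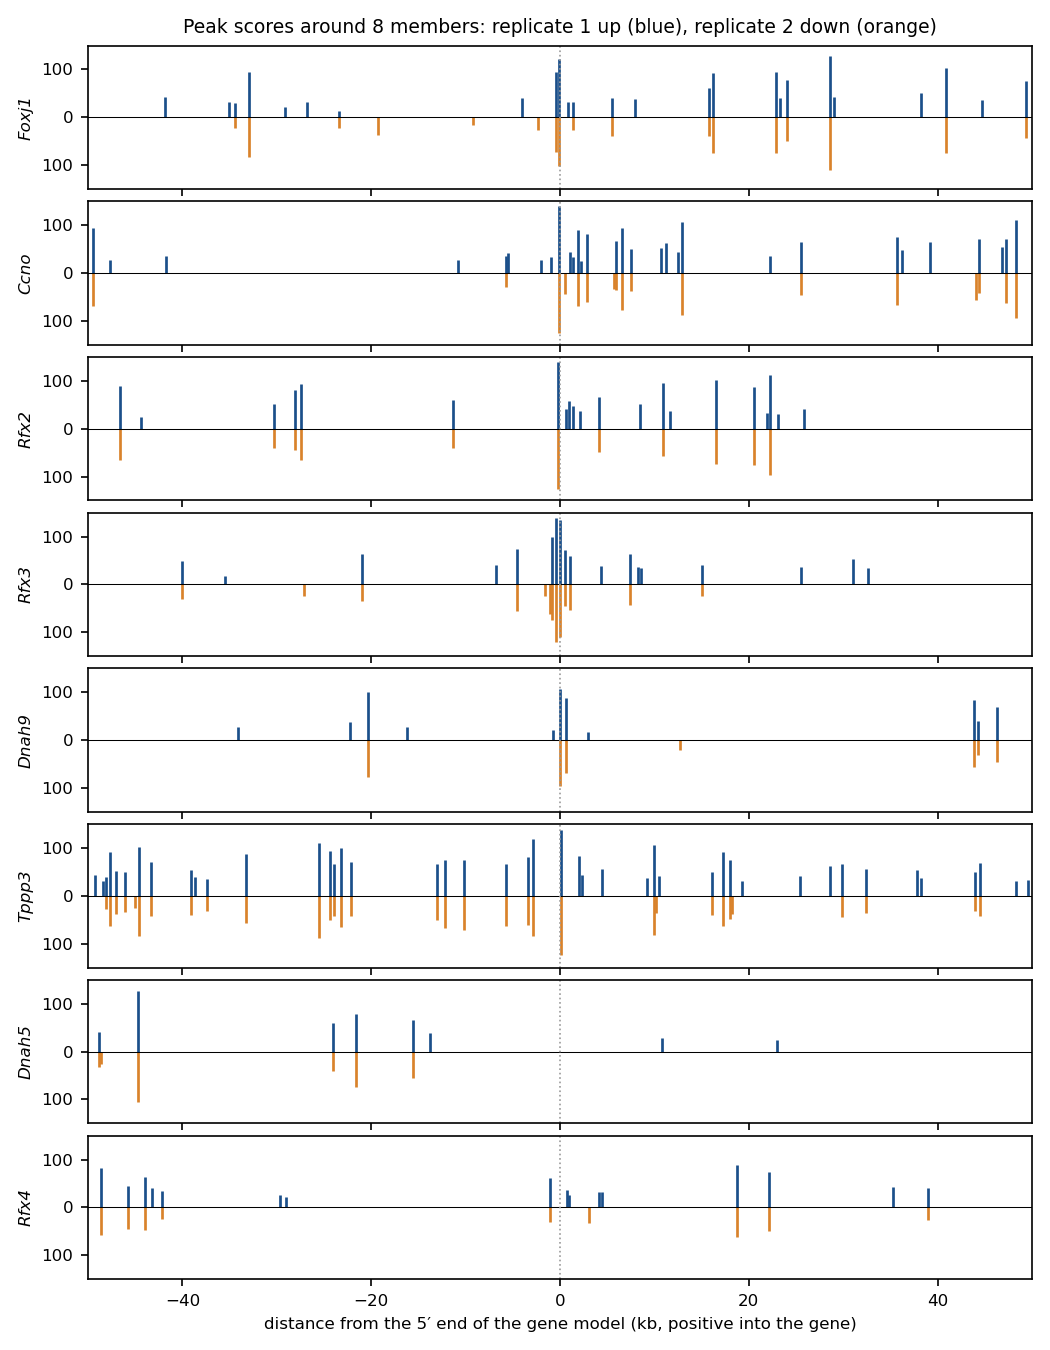
Scores of all peaks within 50 kb of the 5′ end of 8 members (x axis, distance in kb, positive into the gene; y axis, authors' score), replicate 1 upwards and replicate 2 downwards. Foxj1, Ccno, Rfx2, Rfx3, Dnah9 and Tppp3 have their promoter peaks of both replicates at or beside 0, while Dnah5 has none near 0. At Rfx4 the nearest site with peaks of both replicates lies about 1 kb upstream, and peaks of replicate 1 alone lie 728 and 968 bp inside.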

How the data were processed

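DNase-seq peaks and hotspots of 2 biological replicates of newborn mouse lung were used. The deposited peaks carry a whole-number score (column 7), whose meaning the sources used here do not give, and the deposited hotspots a −log10 value of significance (column 9), which reaches a cap of 100 in 39.5% and 36.2% of hotspots. The assembly is mm10 per the labels, and for aligner, peak caller and depth: not given in the sources used here. Scores describe and rank peaks within a list.

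Peaks on chromosomes 1 to 19, X and Y were used after removal of exact duplicates (26 and 23). Peaks overlapping by at least 1 bp were merged, giving 290376 sites, 161051 shared. Python 3.11.15, pandas 2.3.3 and pysam 0.24.0 were used with GENCODE M21 and the GRCm38 sequence. Percentiles are among the strongest promoter sites of all genes with one. The strongest site has the highest mean rank of both scores. The counting and motif search were tested on simulated data. The design has 1 group, so no test was made and no replicate error beyond 2 values exists.

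Every member is named. Of the other lists, the 3 genes with the highest mean rank and up to 3 without a peak, in alphabetical order, are named, and the 5 strongest distal sites. Other named genes, the sequence of Foxj1, and the counts by CpG tertile of score and by distance of the X-box from a TSS were chosen after values were seen. The members and lists were chosen with earlier results of these data known. Alternatives were overlap, promoter width, TSS choice, score minimum, hotspots, distal reach, motif window and each replicate alone. An X-box match of a member is not reported here.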

Additional observations from a re-analysis of the deposited data

How the results depend on the processing

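Of 72 recomputed values, 57 were labelled as stable and 15 as moved. Counts and distal medians were stable within 1.5 times of those given. Median scores were stable if they changed by less than the standard deviation of the medians of replicates 1 and 2. That limit includes the offset between the 2 lists, so it is wide and no measure of replicate error. Whether a value changed sides against all genes was not scored. The turns given above for the forkhead motif and for distal sites per 100 kb are outside these 72 values. Accessible promoters numbered 29 to 36 for members (70.7% to 87.8%), 9 to 11 for regulators and 20 to 25 for axoneme genes. Over the same settings the share of all protein-coding genes ran from 61.9% to 72.4%. With only peaks above the median score of their list, 29 members were left, without Gmnc, Dnah8, Dnah2, Rsph4a and Tekt2. The share of all protein-coding genes was then 61.9%. The distal medians moved with reach and peak choice by construction, since fewer or more sites were counted. Within 20 kb they were 6 for members, 6 for regulators and 6 for axoneme genes, and by nearest TSS 3, 3 and 3. Counting just the peaks that exceed their list's median score gave 5, 5.5 and 5. With a single replicate they ranged from 12 to 19 for members, 13 to 19.5 for regulators and 11 to 18 for axoneme genes, the higher value being that without replicate 2. Members with an X-box pair numbered 6 in 300 bp and 6 in RefSeq windows, against 3 in 150 bp. The single arm, which is a different motif, was in 5 members in 150 bp. No paired analysis was possible because there is 1 group. Depth is unknown, so a missing peak does not show closed chromatin.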
